A study of Homo sapiens with 32 samples.

Results

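The measurements described here are 6 of the 32 bead arrays of the series: the 3 vehicle arrays at 24 h and the 3 vehicle arrays at 10 h of the experiment that tested an active compound. They were chosen by their labels alone, and no array of drug-treated cells stood on either side of the contrast. The spread behind each p-value was taken over all 16 arrays of that experiment, drug-treated ones included. PC-3 is an established human prostate adenocarcinoma cell line that grows as an adherent monolayer. All flasks of the series were kept in RPMI-1640 medium with fetal bovine serum, seeded, and then given vehicle or a compound at 5.5 µM for 10, 24 or 48 h. The vehicle flasks at 24 h and at 10 h therefore differ in the time since vehicle was added, and so also in their time in culture after seeding. The active compound was 4-hydroperoxycyclophosphamide, and a second experiment of 16 arrays tested cyclophosphamide, which the labels call inactive, beside vehicle arrays of its own. A cell line in serum models tumour epithelium without its stroma. The labels describe the vehicle arrays as untreated in one field and as vehicle in another without naming the vehicle, and they do not say whether arrays of a group came from separate flasks, so each p-value is set against a spread between arrays that could be technical alone.

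Freshly seeded adherent cells attach, spread and re-enter the division cycle. In the same period the medium fills with what the cells secrete and loses nutrients. Among the secreted products of PC-3 cells are inflammatory cytokines and chemokines whose genes are driven by the transcription factor NF-kB, which is held in the cytoplasm by inhibitors such as the NFKBIA product. Genes of the division cycle are switched on in order: E2F factors drive genes of DNA synthesis at the G1/S boundary, histone genes are transcribed while DNA is copied, and a later programme drives the genes of mitosis through promoter elements called CHR and CCAAT boxes.

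The 75th percentile of the raw intensities lay between 430.9 and 592.4 on the 24 h arrays and between 476.8 and 655.5 on the 10 h arrays. The 24 h array was the dimmer for each replicate number: 592.4 against 655.5, 466.3 against 548.8 and 430.9 against 476.8. The part of this in the changes was not tested. No 2 arrays of the series held identical values. The 10 markers of PC-3 cells all passed the filter on dim probes and lay between the 77.1 and 98.7 percentiles of all probes. The 7 markers of prostate luminal cells that are listed as low in PC-3 lay between the 7.99 percentile (KLK3, prostate-specific antigen) and the 78.9 percentile (SLC45A3), with a median of 37.5, and 4 of them passed the filter, so the upper end of that list overlapped the PC-3 markers. Each array at 10 or 24 h was also set against the mean of the other arrays of each time in its experiment, over all genes. Vehicle and drug-treated arrays were pooled in this check. For the active compound 1 of 10 such arrays lay nearer to the other time, and it was replicate 3 of vehicle at 10 h, with a correlation of -0.04 with the 24 h arrays and of -0.30 with the 10 h arrays. By the letters of the array titles it was the only 10 h array of its run. Its nearness to the other time can therefore not be told apart from run or treatment. In the inactive-compound experiment 4 of 12 arrays lay nearer to the other time, all of them numbered replicate 3. The total count of calls is given with and without replicate 3 of vehicle at 10 h. So are the called counts of the NF-kB, mitotic, G1/S and histone lists. For the inactive-compound experiment the main counts and list medians are given with and without its 4 arrays. Most other counts and list values include these arrays.

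Between 24 h and 10 h the vehicle cells differed in 138 of 10598 genes, or 1.3%, at an adjusted p under 0.05 in limma with Benjamini-Hochberg adjustment over all genes. Of these, 54 genes were higher at 24 h (0.51% of the genes tested) and 84 were lower (0.793%). The changes were modest: the higher genes changed by 0.30 to 0.73 on the log2 scale and the lower genes by -0.31 to -1.08, and 4 of the higher and 11 of the lower genes passed a fold of 1.5. Of the genes that fell furthest, IL6, CCL20 and CXCL8 encode secreted inflammatory proteins, and a second large block of lower genes serves mitosis. The genes that rose most were FOXQ1, E2F2, H2BC11 and PLAT. The median change over all genes was 0.00.

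**Figure D1:**
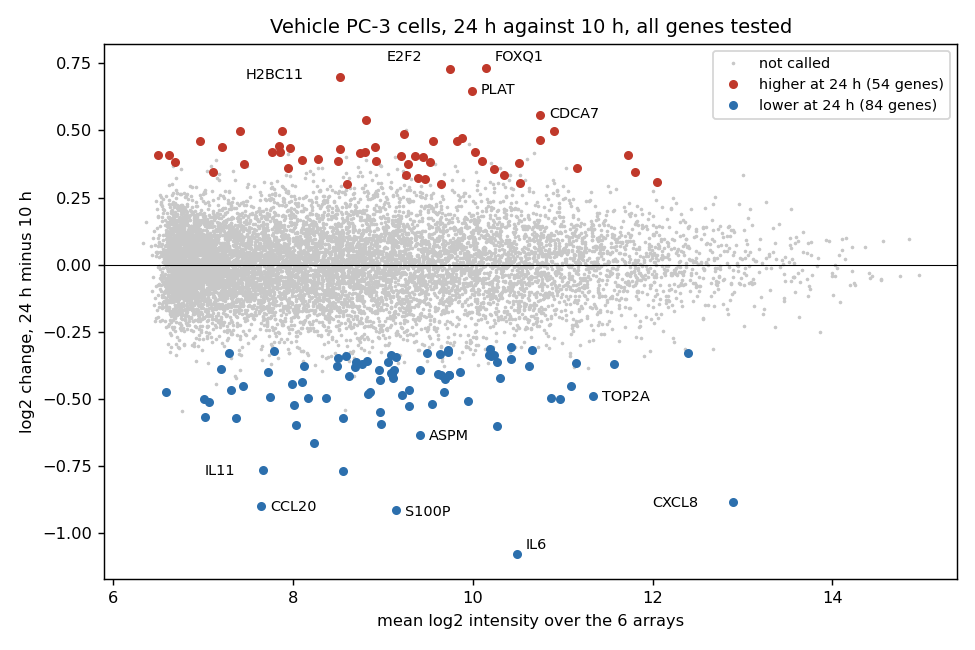
Change on the log2 scale (24 h minus 10 h, vertical axis) against the mean log2 intensity over the 6 arrays (horizontal axis) for each of the 10598 genes tested. Red points are the 54 genes called higher at 24 h, blue points the 84 called lower, and grey points the rest. IL6, at -1.08, lies below all other genes, and FOXQ1 and E2F2, at 0.73, lie above them.

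All 3 arrays at 24 h lay on one side of all 3 at 10 h for 137 of the 138 called genes, with EGR1 as the exception. Among all genes tested the 24 h arrays lay wholly above the 10 h arrays for 1045 genes (9.86%) and wholly below for 1034 (9.76%). The number of calls depended on single arrays. It was 68 without replicate 1 at 10 h, 50 without replicate 1 at 24 h, 33 without replicate 2 at 10 h, 92 without replicate 2 at 24 h and 79 without replicate 3 at 24 h. Without replicate 3 at 10 h, the array nearer to the other time, 147 genes were called. A fit to all 32 arrays called 1 gene, FOXQ1: the root mean square residual SD per gene was 0.119 over the arrays of the active-compound experiment, against 0.215 over those of the other, and that fit shares 1 spread between them. Scaling each array to its median in place of quantile normalization left 8 genes higher and 89 lower, so that 8.25% of the calls were higher, against 39.1% with quantile normalization, and moved the median of all genes to -0.07.

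IL6, the gene that fell furthest, is an NF-kB target. Of 25 tested members of a list of NF-kB target and cytokine genes, 11 were lower at 24 h and 0 were higher, against 0.793% lower among all genes. This list and those that follow were written with earlier results of these data known. For 16 of the 25 all 24 h arrays lay below all 10 h arrays, against 9.76% of all genes, and the median change of the list was -0.33. IL6, interleukin 6, a cytokine that signals through STAT3, had 9.87, 10.01 and 9.97 log2 intensity at 24 h, against 11.03, 11.06 and 10.9996 at 10 h. The arrays spanned 0.14 at 24 h and 0.06 at 10 h on that scale, far less than the gap between the times. The change was -1.08 ± 0.10 (SE), a 2.11-fold lower level at 24 h, with an adjusted p of 7.70e-07 in limma.

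Chemokines that draw leukocytes followed. CCL20, the ligand of CCR6, had 7.11, 7.26 and 7.22 log2 intensity at 24 h, against 8.11, 8.12 and 8.03 at 10 h, a change of -0.90 ± 0.09 (SE, adjusted p = 1.66e-06 in limma). CXCL8, interleukin 8, which attracts neutrophils, had 12.16, 12.44 and 12.75 at 24 h, against 13.24, 13.50 and 13.27 at 10 h, and changed by -0.88 ± 0.12 (SE, adjusted p = 0.00043). For both chemokines the lowest 10 h array stood above the highest 24 h array, and the CXCL8 arrays at 24 h were the more spread. IL11, a cytokine of the IL-6 family, had 7.37, 7.22 and 7.28 at 24 h, against 7.89, 8.32 and 7.94 at 10 h, a change of -0.76 ± 0.11 (SE, adjusted p = 0.000539). CXCL2, a further neutrophil chemokine, had 6.44, 6.62 and 7.16 at 24 h, against 7.35, 7.37 and 7.21 at 10 h, with a change of -0.57 and an adjusted p of 0.0147. Here replicate 3 at 24 h almost reached the 10 h arrays. CXCL2 lies in a family of near-identical genes, and its probe may also bind its relatives.

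The other called members, named after their values were seen, were CXCL6, IL24, STC1, TNFAIP3, RELB and NFKBIA. TNFAIP3 (-0.50) and NFKBIA (-0.33) encode inhibitors of NF-kB signalling that are themselves NF-kB targets, and RELB (-0.33) is an NF-kB subunit. The 14 members that did not pass include, also picked after their values were seen, CXCL1 at -0.31, IL1B at -0.34 and PTGS2 at -0.33, and RELA, the main activating subunit, at 0.02. Among the secreted proteins CSF3 stood at -0.01, CXCL3 at -0.07 and CXCL5 at 0.06. Without replicate 3 at 10 h 10 of the 25 were called. The count was 8 without replicate 1 at 10 h, 5 without replicate 1 at 24 h, 5 without replicate 2 at 10 h, 7 without replicate 2 at 24 h and 7 without replicate 3 at 24 h. All were lower. Because the arrays measure the RNA of whole flasks, fewer cells making a transcript and less transcript per cell cannot be told apart here or in any result that follows.

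The promoters of the 3 inflammatory genes that fell furthest are shown because they carry the letters of an NF-kB site close to their start. The windows are the 250 bases before the start site of the RefSeq gene in GRCh38.p14, written 5′ to 3′ along the gene's strand, with the matches to GGNNTTTCC on either strand in capitals. They are chr7:22726950-22727199 (plus strand) for IL6, chr2:227813592-227813841 (plus strand) for CCL20 and chr4:73740319-73740568 (plus strand) for CXCL8.
IL6: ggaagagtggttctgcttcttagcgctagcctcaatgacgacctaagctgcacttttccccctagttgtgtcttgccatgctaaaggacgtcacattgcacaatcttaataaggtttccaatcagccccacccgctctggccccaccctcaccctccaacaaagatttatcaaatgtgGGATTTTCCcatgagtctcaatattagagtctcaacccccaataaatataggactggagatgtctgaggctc
CCL20: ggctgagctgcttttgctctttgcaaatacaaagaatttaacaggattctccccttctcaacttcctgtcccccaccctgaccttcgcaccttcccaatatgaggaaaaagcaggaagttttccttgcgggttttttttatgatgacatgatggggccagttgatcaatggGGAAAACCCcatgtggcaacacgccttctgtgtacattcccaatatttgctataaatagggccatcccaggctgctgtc
CXCL8: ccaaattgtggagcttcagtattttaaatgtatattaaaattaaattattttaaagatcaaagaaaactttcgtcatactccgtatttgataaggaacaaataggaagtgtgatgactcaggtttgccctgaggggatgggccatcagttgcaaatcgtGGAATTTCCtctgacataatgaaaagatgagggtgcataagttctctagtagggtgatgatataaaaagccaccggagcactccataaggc
The match starts at -72 from the start site in IL6, at -79 in CCL20 and at -91 in CXCL8. RefSeq windows of 250 bases before to 50 after the start were at hand for 8810 of the 10598 genes tested. The motif was held by 7 of 9 called members of the list (77.8%) and by 14 of 21 tested members (66.7%), against 604 of all 8810 (6.86%). IL11 and IL24 were the called members that had a window but no match. A match is a run of letters and not a site of binding. The list was drawn up from known NF-kB targets and cytokine genes.

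**Figure D2:**
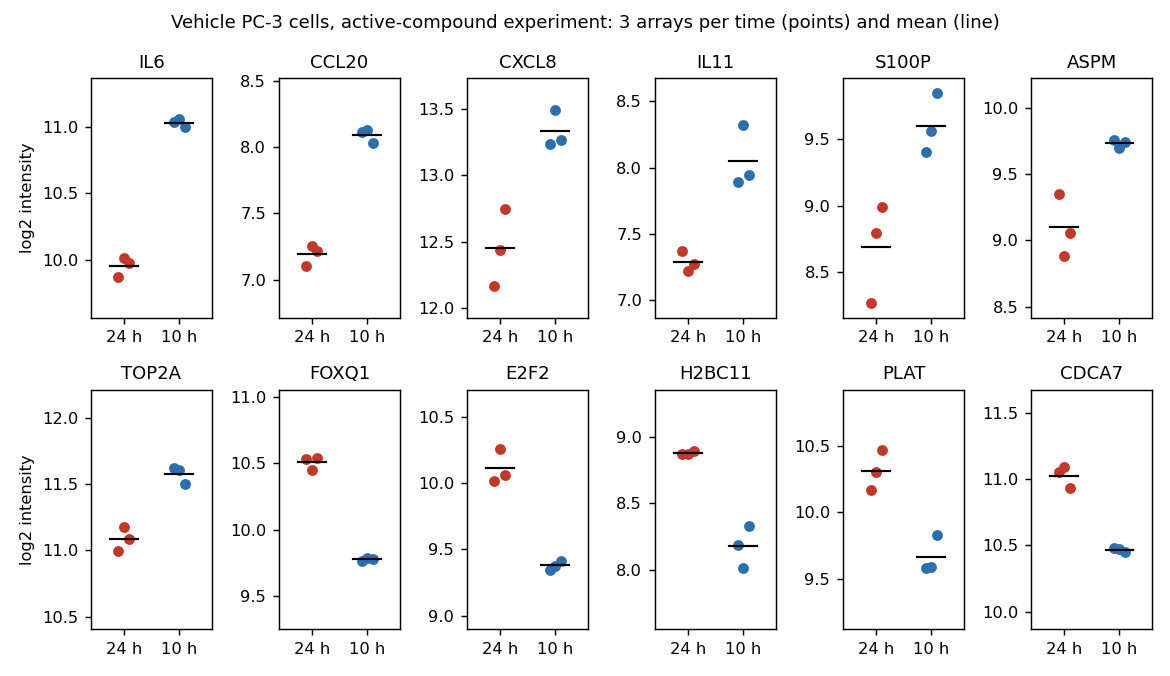
Log2 intensity (vertical axis, each panel spanning the same range) of 12 genes on the 3 vehicle arrays at 24 h (red, left) and the 3 at 10 h (blue, right), with the mean of each time as a black line. In IL6, CCL20, CXCL8, IL11, S100P, ASPM and TOP2A the 24 h arrays lie below the 10 h arrays, and in FOXQ1, E2F2, H2BC11, PLAT and CDCA7 they lie above, with no overlap in any panel.

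Other secreted and surface proteins were among the 15 genes that fell furthest. S100P, a calcium-binding protein of the S100 family, had 8.27, 8.80 and 8.99 log2 intensity at 24 h, against 9.40, 9.56 and 9.85 at 10 h, a change of -0.92 ± 0.13 (SE, adjusted p = 0.000746 in limma). Its arrays varied more within each time than those of IL6 but did not overlap. EDN1, the vasoconstrictor peptide endothelin-1, had 8.17, 8.22 and 8.43 at 24 h, against 8.76, 8.92 and 8.86 at 10 h, a change of -0.57 (adjusted p = 0.000562). UCN2, a peptide of the corticotropin-releasing family, changed by -0.57, and TCN1, a vitamin B12-binding protein, by -0.77. OLR1, a scavenger receptor for oxidised lipoprotein, changed by -0.66, SCG5, a chaperone of the secretory pathway, by -0.60, COL7A1, the collagen of anchoring fibrils, by -0.60, and LRRC8C, a subunit of the volume-regulated anion channel, by -0.55. The adjusted p of these 6 genes lay between 0.00138 and 0.0282.

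Immediate early genes are switched on within minutes of stimulation. Of 17 tested members 2 were lower and 0 higher, against 0.793% lower and 0.51% higher among all genes, with a list median of -0.09. EGR1, a zinc finger factor, had 7.04, 6.74 and 6.49 at 24 h, against 7.48, 7.31 and 6.98 at 10 h, and changed by -0.50 (adjusted p = 0.034 in limma), although replicate 1 at 24 h lay above replicate 3 at 10 h. ATF3, a stress-induced factor, changed by -0.43 (adjusted p = 0.0282). FOS did not pass, with 6.51, 6.32 and 6.82 at 24 h, against 6.77, 6.66 and 6.64 at 10 h. DUSP1, a phosphatase that switches off MAP kinases, was the 1 lower gene of 15 in the MAP kinase feedback list at -0.43, and HBEGF, a ligand of the EGF receptor, the 1 lower gene of 8 in the list of that receptor and its ligands at -0.44. MYC, at 0.23 (adjusted p = 0.177), did not pass.

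The mitotic genes formed the second lower block. Of 39 tested genes of G2 phase and mitosis 14 were lower at 24 h and 0 were higher, against 0.793% lower among all genes. The 24 h arrays lay wholly below the 10 h arrays for 32 of the 39, against 9.76% of all genes, and 36 of the 39 changes were negative with a median of -0.27. ASPM, which organises the poles of the mitotic spindle, had 9.35, 8.89 and 9.06 log2 intensity at 24 h, against 9.75, 9.70 and 9.74 at 10 h, a change of -0.63 ± 0.10 (SE, adjusted p = 0.0016 in limma). The arrays spanned 0.46 at 24 h and 0.06 at 10 h. TOP2A, the topoisomerase that untangles sister chromosomes, had 10.999, 11.18 and 11.09 at 24 h, against 11.62, 11.61 and 11.50 at 10 h, a change of -0.49 ± 0.08 (SE, adjusted p = 0.00385). KIF14, a kinesin of cytokinesis, had 9.28, 9.24 and 9.34 at 24 h, against 9.95, 9.79 and 9.67 at 10 h, a change of -0.52 (adjusted p = 0.00409).

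FAM83D, a spindle protein, changed by -0.45. SGO2, which protects centromeric cohesion, is not in the list but was among the 15 lowest of all genes, at -0.59. CCNB1, the cyclin of mitotic entry, had 8.58, 8.32 and 8.34 at 24 h, against 8.90, 8.78 and 8.81 at 10 h, a change of -0.41 (adjusted p = 0.0225 in limma). The rest of the called members of the list, named after their values were seen, were PSRC1, TTK, TPX2, KIF23, CENPE, PLK1, CDK1, HMMR and BUB1. Their changes ran from -0.53 to -0.34. The list does not hold every called gene of mitosis: KIF15 (-0.38) and SPC25 (-0.37), for example, were called lower outside it. The members with positive changes were BIRC5 at 0.15, PTTG1 at 0.07 and KIF18A at 0.02, and none of them passed. Without replicate 3 at 10 h 11 of the 39 were called. The count was 7 without replicate 1 at 10 h, 6 without replicate 1 at 24 h, 5 without replicate 2 at 10 h, 7 without replicate 2 at 24 h and 11 without replicate 3 at 24 h, all lower.

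Promoters of the mitotic genes are shown for the 3 called members with the largest change that hold the CHR letters, TTTGAA on either strand, in the 250 bases before the start, with the letters in capitals. KIF14, with a larger change than TOP2A and KIF23, holds them after its start and is not shown. FAM83D, TPX2 and TTK also changed more than KIF23, but no window was at hand for them. The RefSeq stretches are chr1:197146670-197146919 (minus strand) for ASPM, chr17:40417897-40418146 (minus strand) for TOP2A and chr15:69414099-69414348 (plus strand) for KIF23, in GRCh38.p14.
ASPM: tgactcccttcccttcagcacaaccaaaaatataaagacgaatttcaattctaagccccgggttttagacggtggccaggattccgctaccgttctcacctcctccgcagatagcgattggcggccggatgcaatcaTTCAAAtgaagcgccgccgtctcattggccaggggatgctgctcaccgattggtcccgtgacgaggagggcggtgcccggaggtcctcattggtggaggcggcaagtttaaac
TOP2A: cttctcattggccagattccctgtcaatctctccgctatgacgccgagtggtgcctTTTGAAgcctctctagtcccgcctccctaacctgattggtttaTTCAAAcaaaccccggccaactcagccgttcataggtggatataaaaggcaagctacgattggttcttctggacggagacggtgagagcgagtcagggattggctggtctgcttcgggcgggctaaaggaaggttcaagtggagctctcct
KIF23: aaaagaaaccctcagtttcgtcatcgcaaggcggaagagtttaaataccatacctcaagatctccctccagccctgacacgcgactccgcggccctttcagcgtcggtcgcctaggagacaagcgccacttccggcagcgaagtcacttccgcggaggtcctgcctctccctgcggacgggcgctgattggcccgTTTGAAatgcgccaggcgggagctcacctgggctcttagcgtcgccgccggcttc
TOP2A holds 2 matches, which start at -194 and -151, ASPM holds 1 at -113 and KIF23 holds 1 at -55. The letters TTTGAA occurred in 21 of 32 windows of the tested list (65.6%) and in 7 of 11 of the called members (63.6%), against 898 of the 8810 windows of all genes tested (10.2%). The letters CCAAT occurred in 27 of the 32 (84.4%), against 37.4% of all windows. Over all 74 lower genes with a window, TTTGAA occurred in 21 (28.4%) and GGNNTTTCC in 12 (16.2%), while over the 40 higher genes with a window they occurred in 1 (2.5%) and in 4 (10.0%). Matches can overlap, since GGNNTTTCC can end in the CC of CCAAT and its N positions can hold letters of any motif.

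**Figure D3:**
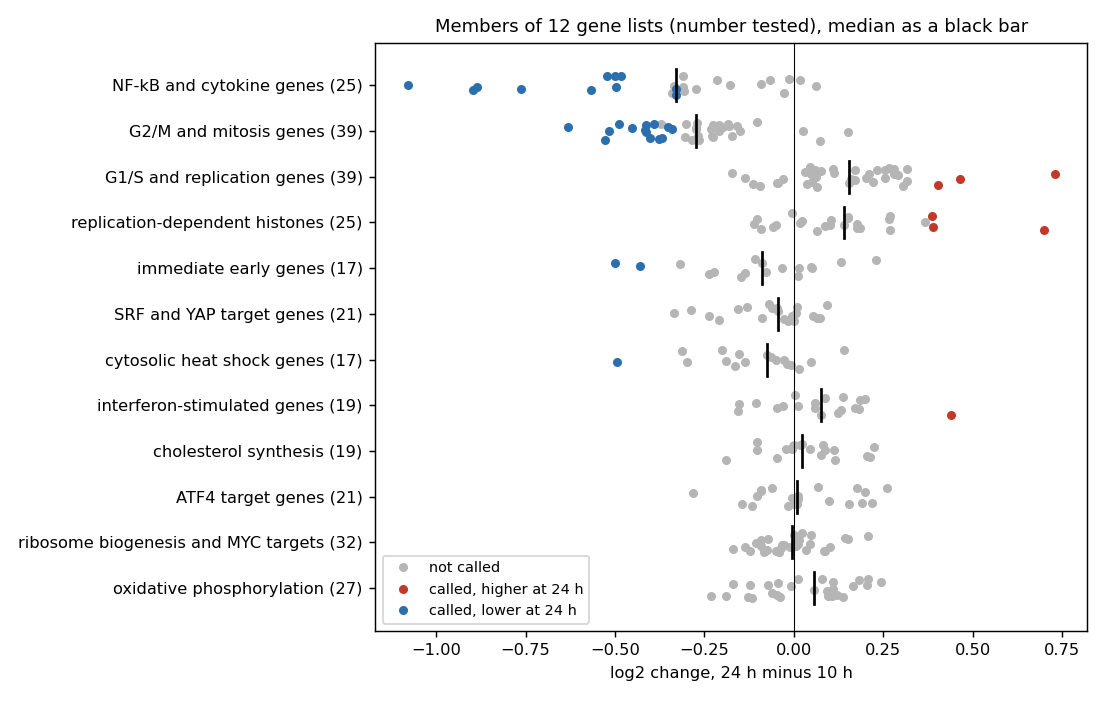
Change on the log2 scale (24 h minus 10 h, horizontal axis) of each tested member of 12 gene lists, 1 list a row with its number of tested members, and the list's median as a black bar. Red points are members called higher at 24 h, blue points those called lower and grey points those not called. The members of the NF-kB list and of the mitotic list lie mostly to the left of 0, with medians of -0.33 and -0.27, and the medians of the cholesterol, ATF4 and ribosome biogenesis lists lie at 0.02, 0.01 and -0.00.

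Genes of the G1/S boundary lay on the other side. Of 39 tested members 3 were higher at 24 h and 0 lower, against 0.51% higher among all genes. The 24 h arrays lay wholly above the 10 h arrays for 18 of them, against 9.86% of all genes, and 32 of the 39 changes were positive with a median of 0.15. With median scaling this median was 0.04 and 1 member was called. E2F2, an activating E2F factor, had 10.01, 10.26 and 10.06 log2 intensity at 24 h, against 9.35, 9.38 and 9.41 at 10 h, a change of 0.73 ± 0.10 (SE, adjusted p = 0.00043 in limma). E2F1, the first known E2F factor, had 9.50, 9.38 and 9.33 at 24 h, against 8.88, 9.08 and 9.06 at 10 h, a change of 0.40 (adjusted p = 0.0282). Both E2F genes were higher on every 24 h array than on any 10 h array. UNG, which removes uracil from DNA, changed by 0.46 (adjusted p = 0.0149). MCM2, a subunit of the replicative helicase, had 9.79, 9.79 and 9.80 at 24 h, against 9.68, 9.58 and 9.60 at 10 h, and its change of 0.17 did not pass (adjusted p = 0.333). Without replicate 3 at 10 h 2 members were called, and over the other arrays left out in turn 1 or 2.

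The windows of both E2F genes are shown because each holds the E2F letters TTTGGCGC, in capitals, just before its start. They are chr1:23531234-23531483 (minus strand) for E2F2 and chr20:33686386-33686635 (minus strand) for E2F1, from RefSeq in GRCh38.p14.
E2F2: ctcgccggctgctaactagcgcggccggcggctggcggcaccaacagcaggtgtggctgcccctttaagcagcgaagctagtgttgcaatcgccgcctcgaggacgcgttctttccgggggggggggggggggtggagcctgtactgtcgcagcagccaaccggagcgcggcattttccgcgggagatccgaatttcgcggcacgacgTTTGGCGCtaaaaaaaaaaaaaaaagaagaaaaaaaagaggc
E2F1: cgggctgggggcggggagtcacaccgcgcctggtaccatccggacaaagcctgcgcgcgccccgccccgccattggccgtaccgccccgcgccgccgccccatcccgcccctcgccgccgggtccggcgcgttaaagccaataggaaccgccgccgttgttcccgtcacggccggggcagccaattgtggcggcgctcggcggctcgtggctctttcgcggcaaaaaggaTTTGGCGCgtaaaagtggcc
The match starts at -42 in E2F2 and at -20 in E2F1. It occurred in 8 of 34 windows of the G1/S list (23.5%), against 97 of 8810 (1.1%), and the related letters TTTCCCGC in 9 of 34 (26.5%), against 223 of 8810 (2.53%). Of the 3 called members, TTTGGCGC occurred in 2, the E2F genes shown, and TTTCCCGC in 0, so UNG held neither. Over the 40 higher genes with a window TTTGGCGC occurred in 2 (5.0%) and TTTCCCGC in 1 (2.5%). The list holds genes of the G1/S boundary, a class known to be driven by E2F factors. The letters TTTCCCGC can share their TTTCC with GGNNTTTCC.

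Replication-dependent histone genes encode the histones that package new DNA. Of 25 tested members 3 were higher and 0 lower, against 0.51% higher among all genes, with a median of 0.14. H2BC11 had 8.87, 8.87 and 8.90 log2 intensity at 24 h, against 8.19, 8.01 and 8.33 at 10 h, a change of 0.70 ± 0.09 (SE, adjusted p = 0.000119 in limma). The 24 h arrays nearly coincided, spanning 0.03, while the 10 h arrays spanned 0.32 below them. H2BC5 and H2AC6 each changed by 0.39 (adjusted p = 0.0175 and 0.0317). Histone genes of one class are near-identical, and a probe for one may also bind transcripts of others. The median was 0.09 both with median scaling and without the filter on dim probes. It was 0.08 without replicate 1 at 24 h. The count of called members was 1 without replicate 1 at 10 h, without replicate 1 at 24 h, without replicate 2 at 10 h or with median scaling, 4 without replicate 2 at 24 h, and 3 without replicate 3 at either time. CDKN1A, the p21 inhibitor of cyclin-dependent kinases, was the 1 lower gene of 16 tested p53 targets, against 0.793% lower among all genes. It had 9.73, 9.56 and 9.80 at 24 h, against 10.02, 10.23 and 10.36 at 10 h. Its change was -0.51 (adjusted p = 0.00945), and PC-3 cells are known to lack p53. CCND1, cyclin D1, changed by 0.04 and did not pass.

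FOXQ1, a forkhead transcription factor, was the gene that rose most. It had 10.53, 10.45 and 10.54 log2 intensity at 24 h, against 9.77, 9.78 and 9.78 at 10 h, a change of 0.73 ± 0.07 (SE, adjusted p = 3.42e-06 in limma). Its arrays spanned 0.09 at 24 h and 0.02 at 10 h, and FOXQ1 was the only gene called under all 20 processing settings and arrays left out. PLAT, tissue plasminogen activator, had 10.17, 10.30 and 10.47 at 24 h, against 9.58, 9.59 and 9.83 at 10 h, a change of 0.65 (adjusted p = 0.00234). CDCA7, a chromatin factor induced by E2F and MYC, had 11.05, 11.09 and 10.93 at 24 h, against 10.48, 10.48 and 10.45 at 10 h, a change of 0.56 (adjusted p = 0.000914). The rest of the 15 genes that rose most changed by 0.46 to 0.54. Among them LXN, a carboxypeptidase inhibitor, changed by 0.49, CPA4, a carboxypeptidase, by 0.47, HAS3, a hyaluronan synthase, by 0.46, and MAP2K6, an activating kinase of p38, by 0.46. TCEA3, a transcription elongation factor, changed by 0.54, PRRX2, a homeobox factor, by 0.50, STMN3, a microtubule-regulating stathmin, by 0.50, PACSIN1, an endocytic adaptor, by 0.50, and RBM4B, an RNA-binding protein, by 0.46. With median scaling CDCA7, LXN, CPA4, HAS3, TCEA3, STMN3 and RBM4B were not called, while PLAT, MAP2K6, PRRX2 and PACSIN1 still were.

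Adhesion, matrix and epithelial genes held single calls in both directions, against the same shares of all genes, 0.51% higher and 0.793% lower. In the integrin and focal adhesion list 1 of 20 was higher and 1 lower: CAV1, the coat protein of caveolae, changed by 0.42 (adjusted p = 0.0118 in limma) and ITGAV, the integrin alpha V chain, by -0.46 (adjusted p = 0.0278). In the matrix list 1 of 20 was higher, which was PLAT, and 1 lower, the type IV collagen gene COL4A1 at -0.34. CLDN1, a tight junction claudin, was the 1 lower gene of 20 junction genes at -0.40, and KRT19, a simple epithelial keratin, the 1 higher of 7 keratins, with 12.06, 11.73 and 11.997 at 24 h, against 11.41, 11.44 and 11.70 at 10 h. CAV1 and KRT19 were also listed as markers of PC-3 cells, of which 2 of 10 were higher. The summed level of those 10 markers was 14.94 to 14.99 at 24 h, against 14.78 to 14.88 at 10 h, and its part in the other changes was not tested. TGFBI, a secreted adhesion protein induced by TGF-beta, was the 1 lower gene of 20 in its list at -0.42. No gene of 21 SRF and YAP targets passed, where AJUBA stood at -0.33 (adjusted p = 0.0793) and TPM4 at -0.21 (adjusted p = 0.273), and CCN1 and CCN2 changed by -0.05 and 0.07.

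Stress and metabolic lists held 1 or 2 calls each, against 0.793% lower and 0.51% higher among all genes. HSPA1A, the inducible HSP70 chaperone, had 10.69, 10.64 and 10.52 at 24 h, against 11.16, 11.24 and 10.94 at 10 h, and at -0.50 (adjusted p = 0.0129 in limma) was the 1 lower of 17 cytosolic heat shock genes, though its probe may also bind the near-identical HSPA1B. HSPA5, the HSP70 chaperone of the endoplasmic reticulum, was the 1 higher of 19 genes of the unfolded protein response at 0.30 (adjusted p = 0.0478). Of 30 hypoxia and glycolysis genes 2 were lower, ANGPTL4 at -0.39 and ENO2 at -0.34, while VEGFA, at 0.15, and GAPDH, at 0.24, did not pass. NPC1, the lysosomal cholesterol transporter, was the 1 lower of 24 lysosome and autophagy genes at -0.32. IFIT2 was the 1 higher of 19 interferon-stimulated genes, with 9.08, 9.17 and 9.15 at 24 h, against 8.81, 8.59 and 8.67 at 10 h, a change of 0.44 (adjusted p = 0.00482).

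In the lists of lipid, amino acid and redox metabolism no gene passed. Among 19 genes of cholesterol synthesis DHCR7 stood at 0.21 (adjusted p = 0.193 in limma), LSS at 0.21 (adjusted p = 0.318) and HMGCS1 at 0.02, and among 15 of fatty acid synthesis LPIN1 at 0.29 (adjusted p = 0.104) and ELOVL6 at 0.20. Among 21 targets of the stress factor ATF4, PPP1R15A stood at -0.28 (adjusted p = 0.0875) and CBS at 0.26, with ASNS at 0.00 and DDIT3 at 0.01. Among 13 amino acid transporters SLC1A3 stood at 0.28 (adjusted p = 0.0922) and SLC6A9 at 0.25, and among 19 aminoacyl-tRNA synthetases QARS1 at 0.14 and MARS1 at 0.13. The 19 NRF2 and glutathione genes had AKR1C3 at 0.36 (adjusted p = 0.157) and GSR at 0.17, with HMOX1 at -0.16. The 18 FOXO and growth arrest genes had BCL6 at 0.22 and ARRDC4 at -0.16, and TXNIP stood at 0.14.

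Growth machinery was likewise without a call. The 32 genes of ribosome biogenesis had NOLC1 at 0.21 and NHP2 at 0.15, the 28 cytosolic ribosomal proteins RPL22 at -0.22 and RPLP2 at 0.15, and the 27 genes of oxidative phosphorylation COX8A at 0.21 and NDUFV2 at -0.23. The 26 proteasome subunits had PSMC6 at -0.27 (adjusted p = 0.0875 in limma) and PSMA2 at -0.25. The 10 MHC class I genes had TAPBP at 0.13 and TAP1 at -0.10, the 7 metallothioneins MT1X at -0.26 and MT1M at -0.16, and the 13 clock genes BHLHE41 at 0.17 and DBP at 0.17. HEY1, a NOTCH target, had 9.90, 9.29 and 9.33 at 24 h, against 9.21, 9.04 and 8.76 at 10 h. Its change of 0.50 is as large as that of several called genes, but its arrays were more spread and it did not pass (adjusted p = 0.2). LEF1, at -0.20, was the next of the 13 WNT and NOTCH targets. Of 12 BCL2 family genes BAD stood at 0.27 (adjusted p = 0.104) and BCL2 at -0.26 (adjusted p = 0.102). Another BCL2 probe that passed the filter changed in the opposite direction.

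Markers of other cell types held 1 call, which was ENO2, against 0.793% lower and 0.51% higher among all genes. Of 4 tested prostate luminal markers 0 were called, with SLC45A3 at -0.31 (adjusted p = 0.118 in limma) and KLK4 at 0.14, and the summed level of the list was 10.11 to 10.24 at 24 h, against 10.30 to 10.34 at 10 h. None of 3 blood cell markers was called, with PTPRC at 0.10 and CD68 at 0.09. PECAM1, the 1 tested endothelial marker, stood at 0.26 (adjusted p = 0.145), and COL1A1, the 1 tested fibroblast marker, at -0.11. ENO2, at the 75.7 percentile of all probes, was the 1 lower gene of 3 tested neuroendocrine markers (-0.34, adjusted p = 0.0225), and its list's summed level was 9.55 to 9.60 at 24 h, against 9.68 to 9.79 at 10 h; its part in the other changes was not tested. Of the called genes, 89 were in none of the 41 lists.

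The vehicle arrays at 48 h show where the levels went next, and are given as levels without a test. All 11 called genes of the NF-kB list were lower still at 48 h on average. IL6 had 11.03, 11.06 and 10.9996 at 10 h, 9.87, 10.01 and 9.97 at 24 h and 9.19, 9.38 and 9.34 at 48 h. In the mitotic list 13 of the 14 called genes lay between their 24 h and 10 h means at 48 h. TOP2A had 11.62, 11.61 and 11.50 at 10 h, 10.999, 11.18 and 11.09 at 24 h and 11.46, 11.32 and 11.28 at 48 h, so its 48 h arrays lay above all 24 h arrays and below all 10 h arrays. All 3 called G1/S genes were likewise between, with E2F2 at 9.61, 9.81 and 9.90 at 48 h. Of the 3 called histone genes 2, H2BC5 and H2AC6, were higher still at 48 h on average, and 1, H2BC11, lay between. LXN had 9.16, 8.73 and 9.10 at 10 h, 9.58, 9.36 and 9.51 at 24 h and 10.44, 10.38 and 10.62 at 48 h. Of all higher genes 33 of 54 were further from 10 h at 48 h than at 24 h, and 45 of 84 lower genes were. For 3 lower genes and 0 higher genes the 48 h mean lay back past the 10 h mean.

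**Figure D4:**
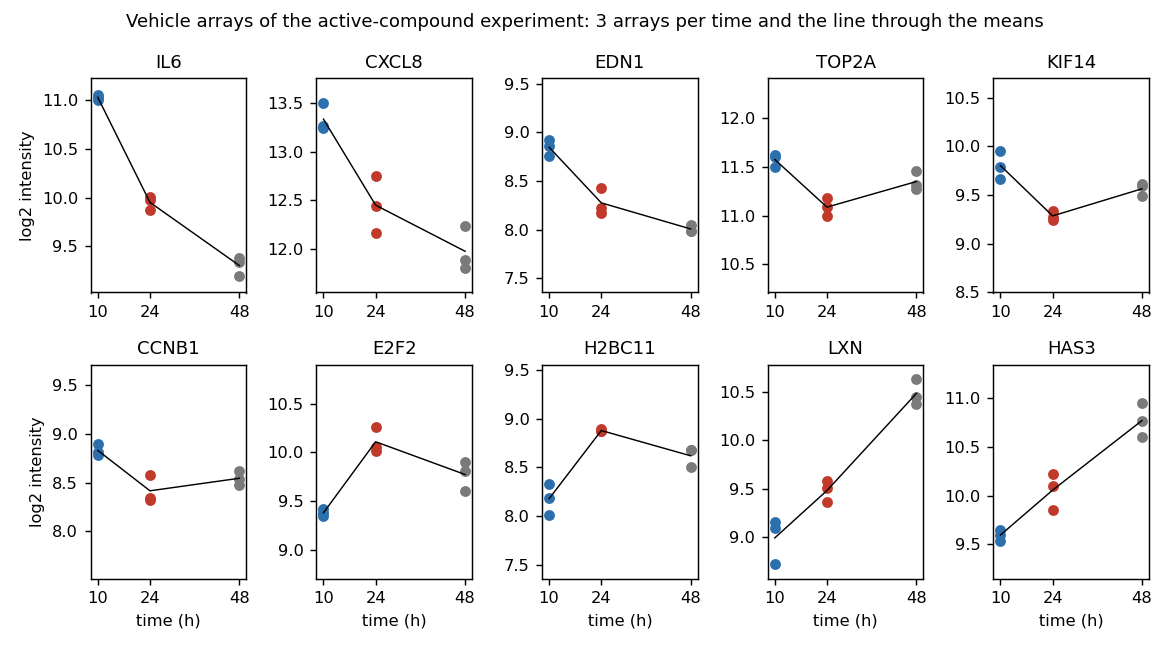
Log2 intensity (vertical axis, each panel spanning the same range) of 10 genes on the vehicle arrays of the active-compound experiment at 10 h (blue), 24 h (red) and 48 h (grey), with 3 arrays a time and a line through the means. IL6, CXCL8 and EDN1 are lowest at 48 h, TOP2A, KIF14 and CCNB1 are lowest at 24 h, E2F2 and H2BC11 are highest at 24 h, and LXN and HAS3 are highest at 48 h.

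The same contrast was taken in the inactive-compound experiment, whose vehicle cells had the same labels for line, vehicle and times. In the active-compound experiment 138 genes were called by limma and 1516 had an unadjusted p under 0.05, against 0 called genes (0%) and 188 in the inactive-compound experiment. Of the 54 genes that were higher at 24 h in the active-compound experiment 9 had a positive change in the inactive one, where 5447 of all 10598 genes did. Of the 84 lower genes 22 had a negative change there. Without the 4 arrays nearer to the other time these counts were 11 of 54, where 5531 of all genes had a positive change, and 21 of 84. IL6 changed by -1.08 ± 0.10 (SE) in the vehicle cells of the active-compound experiment, against 0.47 ± 0.66 in those of the other, or 0.93 ± 0.62 without those 4 arrays. The median of the NF-kB list was -0.33, against 0.09 in the inactive-compound experiment, and that of the mitotic list was -0.27, against -0.06. The median of the G1/S list was 0.15, against 0.09 in the inactive-compound experiment, and 33 of its 39 members had a positive change there. The histone list went the other way: its median was 0.14, against -0.13 in the inactive-compound experiment, where 16 of its 25 members had a negative change. Without the 4 arrays the medians in the inactive-compound experiment were 0.15 for the NF-kB list and -0.08 for the mitotic list. They were 0.27 for the G1/S list and -0.16 for the histone list. In that setting 35 of the 39 G1/S members had a positive change and 20 of the 25 histone members a negative one.

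The difference between the changes was tested in 1 fit of all 32 arrays, with a weight for each experiment. It passed for 4 genes (0.0377%), and 860 had an unadjusted p under 0.05. S100P changed by -0.92 in the active-compound experiment, against 0.77 in the other, a difference of -1.69 (adjusted p = 0.0284 in limma). GBP1, a guanylate-binding protein induced by interferon and named because its difference passed, changed by -0.47, against 0.64, a difference of -1.11 (adjusted p = 0.0302). H2BC11 changed by 0.70, against -0.43, a difference of 1.13 (adjusted p = 0.0428), and FOXQ1 by 0.73, against -0.17, a difference of 0.90 (adjusted p = 0.0284). For IL6 the difference did not pass (adjusted p = 0.524). The 4 calls rested on single arrays: the count was 0 without any 1 of 8 arrays, replicates 1 and 2 of each time in the inactive-compound experiment among them, and 59 without replicate 3 at 24 h of that experiment. Without the same 4 arrays 3 genes passed in the inactive-compound experiment and 370 passed for the difference. Those arrays were left out for their values, so these 2 counts are descriptions.

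**Figure D5:**
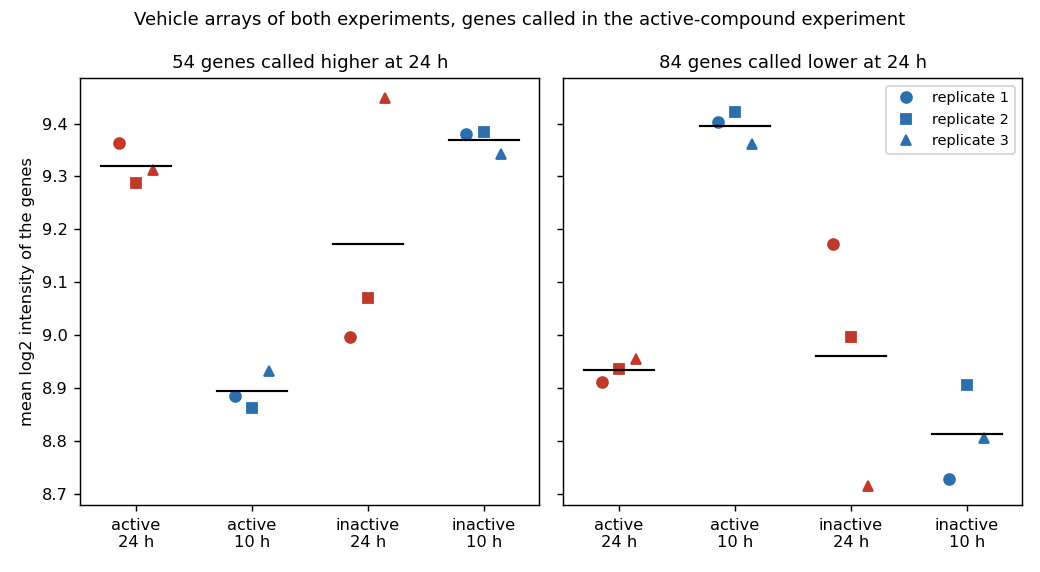
Mean log2 intensity (vertical axis) over the 54 genes called higher (left panel) and the 84 called lower (right panel) at 24 h in the active-compound experiment, on each vehicle array of the active-compound and the inactive-compound experiment at 24 h (red) and 10 h (blue). Symbols mark replicates 1 to 3, and lines the group means. In the active-compound experiment, where the genes were chosen, the times are far apart. In the inactive-compound experiment replicates 1 and 2 at 24 h lie below the 10 h arrays in the left panel and above them in the right panel, and replicate 3 at 24 h lies above them in the left panel and below them in the right.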

How the data were processed

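The series holds 32 one-colour Illumina bead arrays of PC-3 RNA, 16 in each experiment. The deposited table holds linear intensity values per probe without detection p-values, so no limit of detection can be given, and the submitters' processing notes name BeadStudio and R 2.12.0. A table by the authors, used as an alternative, holds log2 values of the same arrays, with a normalization not given in the sources used here. Background correction by normexp (offset 50), quantile normalization over all 32 arrays and the log2 step were done in limma 3.58.1 under R 4.3.3. Of 20589 probes, 18332 had 1 gene symbol in the platform annotation, the other 2257 stayed unnamed, and 18315 gene identifiers were found in RefSeq's table. Probes in the upper 60% by mean were kept, and the brightest stood for its gene.

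Group means were fitted with lmFit and eBayes to the 16 arrays of the active-compound experiment, as the 2 experiments differ in spread, and the other experiment was fitted alone. The difference between them used all 32 arrays with arrayWeights by experiment. Genes are called at an adjusted p under 0.05 over all genes tested (Benjamini-Hochberg). The number of arrays, 3 for each time, limits the precision. The scripts were tested on simulated data. Alternatives covered the arrays fitted, background, normalization, filter, prior, a replicate block and each array left out.

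The members and the 41 lists were chosen with earlier results of these data known. Named are the 15 higher and 15 lower called genes with the largest change whose arrays do not overlap, up to 4 called members of each list with the smallest p (or 2 where none was called), and a preset group of well-known genes. Another probe had passed for 8 of the 107 named genes, with the opposite sign for 3, none of them called.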

Additional observations from a re-analysis of the deposited data

Results flagged for a closer look

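The change between 24 h and 10 h differed between the active-compound and the inactive-compound experiment for 4 genes, by the test of the difference itself in limma. The differences on the log2 scale, active-compound minus inactive-compound experiment, were 0.90 for FOXQ1 (adjusted p = 0.0284), -1.11 for GBP1 (adjusted p = 0.0302), 1.13 for H2BC11 (adjusted p = 0.0428) and -1.69 for S100P (adjusted p = 0.0284). FOXQ1 and H2BC11 were higher at 24 h in the active-compound experiment and had negative changes in the inactive one. GBP1 and S100P were lower at 24 h in the active-compound experiment and had positive changes in the inactive one.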

How the results depend on the processing

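The count of 138 called genes was 1 with all 32 arrays in the fit, 90 with the 6 arrays compared alone, 87 with an offset of 16 and 53 without the filter on dim probes. It ran from 33 to 147 with 1 array left out. With the run in the array titles as a replicate block the count was 266, and 194 as a random block. The labels do not say that runs pair the arrays, the deviations of same-run arrays at 24 h and 10 h correlated at 0.07, 0.15 and 0.19, and not every array correlated best with its own run, so the block is not used. In the inactive-compound experiment the count stayed at 0 over the arrays left out, and was 3 without the arrays nearer to the other time, which was added after seeing the data. The difference between the experiments passed for 4 genes, for 0 without weights, 2 with median scaling, 18 with the authors' log2 values, 0 to 59 with 1 array left out and 370 without the arrays nearer to the other time.

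The median of the NF-kB list, -0.33, was -0.26 without background correction, -0.43 with median scaling and -0.35 to -0.30 with 1 array left out. That of the mitotic list, -0.27, was -0.40 with median scaling and -0.30 to -0.25 with 1 array left out. That of the G1/S list, 0.15, was 0.040 with median scaling and 0.11 to 0.17 with 1 array left out, and that of the histones, 0.14, was 0.091 with median scaling, 0.088 without the filter and 0.081 to 0.137 with 1 array left out. The cause of these shifts was not tested. None of these list medians changed its direction, and neither did any named gene that was called. The check did not cover a change of sign in named genes that were not called. Called under all 20 settings was FOXQ1, and 18 other genes were lost only with all 32 arrays in the fit, IL6, CXCL8, IL11, S100P, EDN1, E2F2, H2BC11, PLAT, TOP2A, ASPM and KIF14 among them. Without detection values, changes of dim probes are the least certain.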
